A study of Mus musculus with 18 samples.

Results

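Lpl, Cd36, Olr1, Msr1, Fabp4, Fabp5, Plin2, Apoe, Trem2 and Gpnmb, 10 genes of lipid uptake and of the lipid-laden macrophage, were followed through total and polysome-bound RNA of mouse myeloid cells. They were taken by symbol from the 54838 genes of the deposited count table, and 9 of the 10 had at least 1 count. The same 9 passed the filter on low counts and were tested among 14181 genes. MDSC, or myeloid-derived suppressor cells, are immature cells that restrain T cell responses, and these had been differentiated from C57BL/6 wild-type bone marrow for 5 days and sorted as CD11b-high cells. Cells of the gate named LY6G were high for Ly6G and intermediate for Ly6C, and cells of the gate named LY6C were negative for Ly6G and high for Ly6C. Sorted cells were plated and harvested the next day with cycloheximide, which freezes ribosomes on mRNA. BM was marrow washed out of the femurs of 3 mice and cleared of red cells, neither cultured nor sorted. Each kind gave 3 libraries of total RNA and 3 of polysomal RNA, the RNA that sediments with several ribosomes in a sucrose gradient. The sorted libraries carry the numbers 2, 3 and 6 and the BM libraries 1, 2 and 3, and the series describes them as independent biological replicates. Culture, sort and cell type therefore all differ between the sorted cells and BM and cannot be told apart.

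Macrophages take up fatty acids and modified lipoproteins through surface receptors, split lipoprotein triglyceride with a secreted lipase, ferry fatty acids through the cytosol on small binding proteins and store the surplus as droplets coated by perilipin. Cholesterol leaves again on apolipoprotein E. When intake exceeds disposal the cells fill with droplets and become foam cells, which are also found among tumour-associated and suppressive myeloid cells. Trem2 and Gpnmb are surface and lysosomal proteins by which such lipid-laden macrophages are often recognised.

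Total counts ran from 8559897 to 21138649 in the 12 sorted libraries, from 19776431 to 26225431 in BM total RNA and from 12107504 to 17846803 in BM polysomal RNA. Nuclear protein-coding genes, here and below without Lars2, took 37.3% to 94.6% of the counts in sorted cells. They took 0.232% to 0.291% in BM total RNA and 1.82% to 3.71% in BM polysomal RNA. Levels are given in CPM, the counts of a gene per 1e6 counts of a library scaled by TMM factors. A level of 1 CPM was 18 to 110.0 counts in sorted cells, 0.472 to 0.611 counts in BM total RNA and 1.73 to 3.51 counts in BM polysomal RNA, so BM levels rest on few reads. All 8 macrophage markers had counts in both sorted populations, where their summed level ran from 204.8 to 1002 CPM, against 59.3 to 123 CPM in BM. The 8 neutrophil markers also had counts, at 469 to 3915 CPM in sorted cells, which overlapped BM at 636 to 663 CPM in total and 1610 to 2408 CPM in polysomal RNA. Ly6g itself, the gate's marker, stood at 4.03 ± 4.07 CPM (SD, n = 3) in LY6G total RNA and 3.38 ± 1.34 CPM in LY6C total RNA, which overlapped, so the Ly6g transcript did not separate the sorted populations.

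Promoter windows of 300 bases, 250 before and 50 after the annotated start, were available from RefSeq (GRCm38.p6) for 6 of the 10 genes. The windows below are those of Gpnmb and Olr1, which were at or near 0 in BM, of Plin2, which was present in every library, and of Apoe, whose mean was higher in BM (1 of the 3 windows listed for it). Capitals mark a match to a searched motif.

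Gpnmb (chr6:49036268-49036567, plus strand): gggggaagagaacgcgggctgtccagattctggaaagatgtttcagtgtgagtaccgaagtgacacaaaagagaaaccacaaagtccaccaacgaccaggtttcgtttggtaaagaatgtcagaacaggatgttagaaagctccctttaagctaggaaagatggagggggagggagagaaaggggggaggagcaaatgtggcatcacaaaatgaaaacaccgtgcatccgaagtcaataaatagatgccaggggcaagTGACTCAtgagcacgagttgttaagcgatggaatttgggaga
Olr1 (chr6:129507116-129507415, minus strand): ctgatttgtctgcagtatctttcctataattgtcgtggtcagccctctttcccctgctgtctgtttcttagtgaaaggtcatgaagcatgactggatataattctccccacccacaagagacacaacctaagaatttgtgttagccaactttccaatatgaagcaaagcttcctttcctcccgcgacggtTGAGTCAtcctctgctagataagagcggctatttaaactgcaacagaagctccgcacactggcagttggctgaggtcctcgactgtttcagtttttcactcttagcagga
Plin2 (chr4:86670010-86670309, minus strand): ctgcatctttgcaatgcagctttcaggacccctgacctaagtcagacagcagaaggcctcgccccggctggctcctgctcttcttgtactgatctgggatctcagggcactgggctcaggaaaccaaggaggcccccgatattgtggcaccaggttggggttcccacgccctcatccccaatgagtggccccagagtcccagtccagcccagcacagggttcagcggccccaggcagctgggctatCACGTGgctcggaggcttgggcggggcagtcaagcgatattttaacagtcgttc
Apoe (chr7:19699139-19699438, minus strand): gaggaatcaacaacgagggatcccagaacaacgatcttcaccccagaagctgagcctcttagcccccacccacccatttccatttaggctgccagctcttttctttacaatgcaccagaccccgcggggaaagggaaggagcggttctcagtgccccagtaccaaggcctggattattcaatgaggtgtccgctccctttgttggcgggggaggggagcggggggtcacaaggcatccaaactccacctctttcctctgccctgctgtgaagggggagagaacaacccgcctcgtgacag

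The AP-1 motif (TGANTCA, the same on both strands) was found in the windows of Gpnmb, 9 bases after the start, and of Olr1, 60 bases before it. It was also found in that of Trem2, and 7.81% of all 32851 promoter windows held it. The E-box CACGTG lay 4 bases before the start of Plin2, and 7.15% of windows held it. None of the 6 windows held the M-box TCATGTG (3.77% of all windows, either strand), the PU.1 motif GAGGAAGT (3.2%), the TATA motif TATAAA (13.6%) or the PPAR element, AGGTCA repeated after any 1 base (0.0396%). A match is a string of letters and not a binding site.

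Of the 9 genes, 7 (the 4 uptake genes Lpl, Cd36, Olr1 and Msr1 with Fabp5, Plin2 and Gpnmb) were higher in both sorted populations than in BM, in total and in polysomal RNA. Fabp4, the adipocyte-type fatty acid carrier, was lower in polysomal RNA of both populations. Apoe had a lower mean in all 4 comparisons and was not called. By edgeR's quasi-likelihood test with Benjamini-Hochberg adjustment over 14181 genes, at an adjusted p under 0.05, 7 of 9 were called higher in LY6C total RNA, where 20.5% of all genes were, and 7 of 9 in LY6G total RNA, where 21.5% were. None was called lower there, against 7.4% and 9.39% of all genes. In polysomal RNA 7 of 9 were called higher against 20.2% of all genes for LY6C and 22.1% for LY6G, and 1 of 9 was called lower against 11.2% and 15.3%. The 7 genes called higher did not overlap between groups in any of the 4 comparisons, as was the case for 48.5% of all genes in LY6C total, 54.2% in LY6G total, 34.7% in LY6C polysomal and 41.1% in LY6G polysomal RNA. With the 4 genes at 0 in BM total RNA set at their lower bounds, the median difference of the 9 was 3.36 (log2) for LY6C and 3.67 for LY6G, against 0.00 over all genes. Here and below a bound under 0 was set at 0, and 4662 of the 14181 genes had no count in BM total RNA. The 0.00 over all genes thus depends on this rule and does not measure an absence of shift. The fitted medians, which are no bounds, were 7.38 and 7.65 against 1.64 and 1.63. In polysomal RNA the medians with bounds were 4.20 and 4.59, against 0.10 and 0.03 over all genes (fitted, 0.52 and 0.45). The all-gene medians depended on the scaling. For LY6C total RNA the 1.64 became 1.36 with median-ratio factors, 0.18 in DESeq2 and 0.05 in limma, and none of these settings turned the direction of a gene against BM. Within each fraction both comparisons share its 3 BM libraries, and fewer cells of a type cannot be told apart from less RNA per cell.

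**Figure D1:**
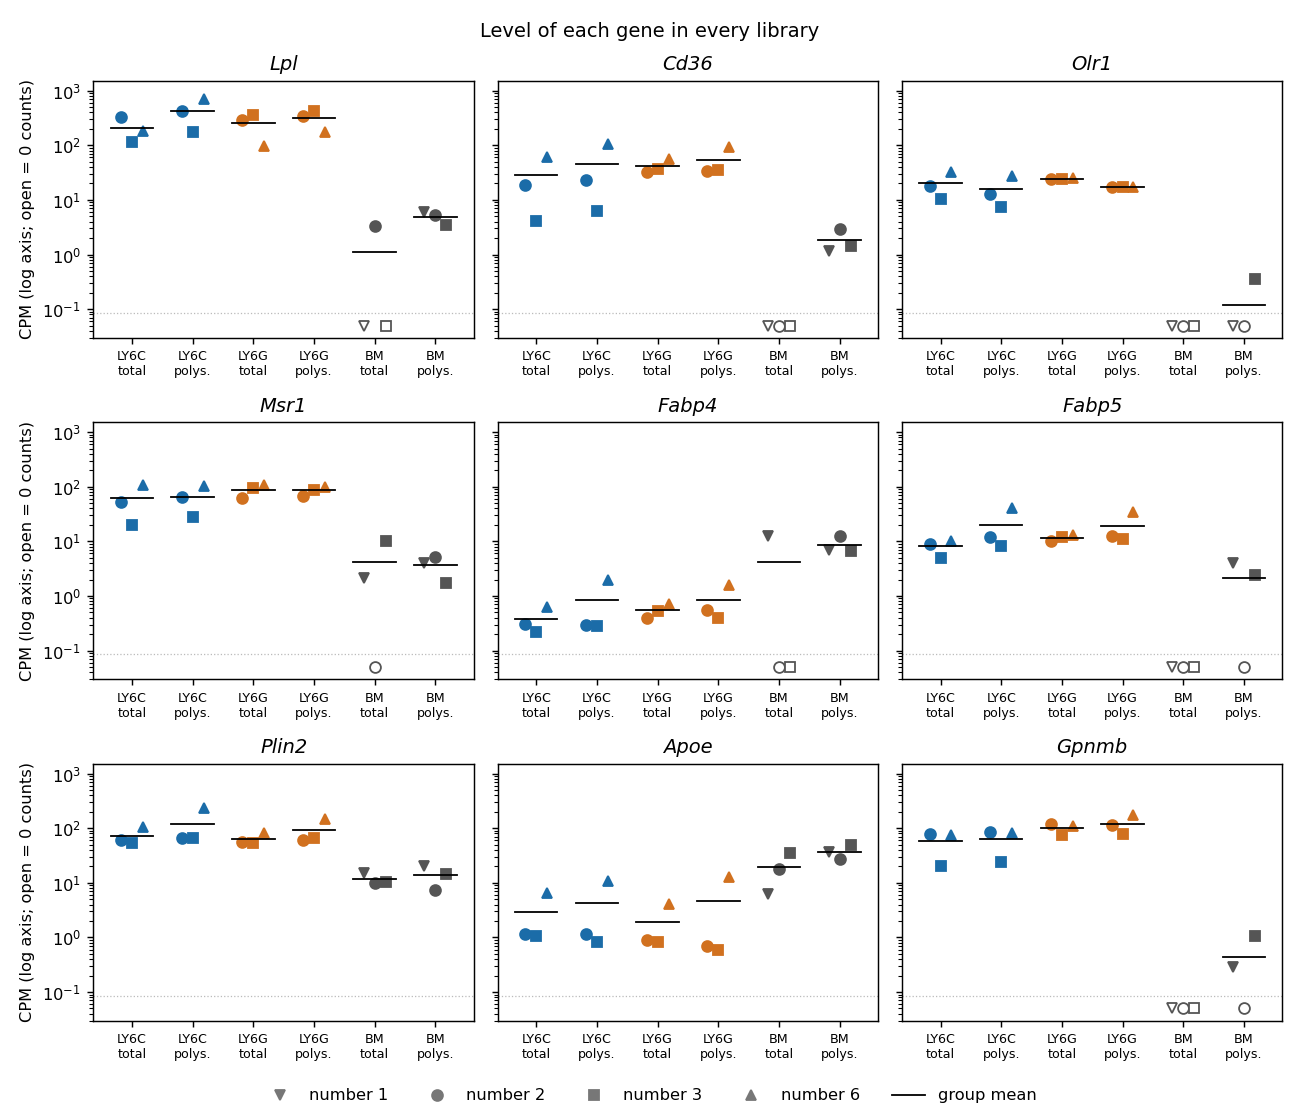
Level of each of the 9 detected genes in every library, in CPM on a log axis, by group; symbols give the library number, open symbols at the bottom mark 0 counts and bars the group means. Lpl has the highest mean in each sorted group and lies at 0 to 5.99 CPM in BM, while Apoe and Fabp4 have their highest means in BM polysomal RNA.

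Lpl (ENSMUSG00000015568, GRCm38 chr8:68880491-68907448, plus strand) encodes lipoprotein lipase, the secreted enzyme that splits lipoprotein triglyceride. Its levels in libraries 2, 3 and 6 were 334, 115 and 182 CPM in LY6C total RNA and 425, 173 and 696 CPM in LY6C polysomal RNA. In LY6G they were 295, 366 and 98.2 CPM in total and 343, 432 and 177 CPM in polysomal RNA. BM total RNA had 0, 3.27 and 0 CPM, which is 2 counts in all, and BM polysomal RNA 5.99, 5.20 and 3.51 CPM. Every sorted library thus stood above every BM library, by a wide gap. On pooled counts the LY6C level was 222.6 times that of BM in total RNA (95% counting interval 61.6 to 1838) and the LY6G level 197 times (54.5 to 1627). In polysomal RNA the fitted differences were 6.46 ± 0.71 (log2 ± SE, adjusted p = 2.14e-06) for LY6C and 6.01 ± 0.69 (adjusted p = 2.73e-06) for LY6G by edgeR. Intervals here and below cover counting error only.

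Cd36 (ENSMUSG00000002944, chr5:17781690-17888801, minus strand) encodes the fatty acid translocase, which also binds oxidised LDL. LY6C total RNA had 18.8, 4.10 and 61.6 CPM and LY6C polysomal RNA 23.1, 6.37 and 104.6 CPM, a 15.0-fold and a 16.4-fold range within each group. LY6G was tighter, with 32.0, 36.9 and 57.0 CPM in total and 34.2, 35.1 and 92.9 CPM in polysomal RNA. No read of Cd36 was counted in BM total RNA, and BM polysomal RNA had 1.14, 2.89 and 1.41 CPM. Against the 3 counts that a 0 over the BM group allows, Cd36 was at least 12.4-fold higher in LY6C and at least 21.7-fold higher in LY6G total RNA. The LY6C call (adjusted p = 0.0381) was lost on leaving out LY6C total library 6 or any 1 of the 3 BM total libraries (adjusted p 0.0845 to 0.106). The LY6G call was lost without BM total library 2 (0.0611) or 3 (0.0506). In polysomal RNA the differences were 4.73 ± 1.23 (adjusted p = 0.0103) and 5.01 ± 1.24 (adjusted p = 0.00635).

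Olr1 (ENSMUSG00000030162, chr6:129485244-129507165, minus strand) encodes LOX-1, a lectin-like receptor for oxidised LDL whose rise marks suppressive neutrophils in human blood. LY6G gave the closest replicates of the set, 24.1, 24.1 and 25.0 CPM in total RNA and 17.4, 17.1 and 17.4 CPM in polysomal RNA. LY6C had 18.3, 10.5 and 33.0 CPM in total and 12.6, 7.34 and 26.9 CPM in polysomal RNA, on both sides of the LY6G values. In BM a single read was counted among the 6 libraries, in polysomal library 3. Olr1 was at least 10.3-fold higher in LY6C and 12.8-fold higher in LY6G total RNA (adjusted p = 0.00045 and 0.000233 by edgeR). Against the 1 BM count, the pooled ratio in polysomal RNA was 108 (19.4 to 4279) for LY6C and 140 (25.1 to 5526) for LY6G.

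Msr1 (ENSMUSG00000025044, chr8:39581685-39642673, minus strand) encodes class A scavenger receptor, which takes up acetylated and oxidised LDL. LY6C total RNA had 53.5, 19.6 and 109.7 CPM and LY6G total RNA 63.2, 93.1 and 107.9 CPM. Polysomal RNA had 65.0, 27.8 and 103 CPM in LY6C and 68.3, 87.5 and 100.2 CPM in LY6G. BM lay lower in all 6 libraries, at 2.12, 0 and 10.3 CPM in total and 3.99, 5.20 and 1.76 CPM in polysomal RNA. Differences from BM were 3.96 ± 0.83 for LY6C (adjusted p = 0.00158) and 4.49 ± 0.83 for LY6G in total RNA, on the log2 scale. The polysomal differences were 4.20 ± 0.70 and 4.59 ± 0.70.

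Both cytosolic fatty acid carriers lie close together on chromosome 3, and they went opposite ways. Fabp5 (ENSMUSG00000027533, chr3:10012548-10016607, plus strand), the epidermal form that macrophages also make, had 9.10, 4.99 and 10.4 CPM in LY6C total RNA and 10.1, 11.9 and 13.2 CPM in LY6G total RNA. Polysomal RNA had 11.9, 8.20 and 40.6 CPM in LY6C and 12.8, 10.9 and 34.5 CPM in LY6G, with library 6 far above the others. BM total RNA had no count and BM polysomal RNA 3.99, 0 and 2.46 CPM. Fabp5 was at least 4.26-fold higher in LY6C and 6.06-fold higher in LY6G total RNA, and its polysomal differences were 3.06 ± 0.75 (adjusted p = 0.00537) and 3.00 ± 0.75 (adjusted p = 0.00491). In total RNA the LY6C call (adjusted p = 0.0371) did not survive leaving out LY6C total library 2 or 6 or any BM total library (adjusted p 0.0624 to 0.131). The LY6G call (0.0172) did not survive leaving out any BM total library (0.0553 to 0.0728).

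Fabp4 (ENSMUSG00000062515, chr3:10204088-10208576, minus strand), the carrier best known from adipocytes, reached only 0.22 to 1.92 CPM in the 12 sorted libraries. BM polysomal RNA had 6.85, 12.7 and 6.68 CPM, all above the sorted cells. Groups that do not overlap in this direction were found for 14% of all genes in LY6C and 19.5% in LY6G polysomal RNA. Fabp4 fell, with a log2 difference of -3.45 ± 0.86 (adjusted p = 0.00472) in LY6C and -3.33 ± 0.84 (adjusted p = 0.00418) in LY6G polysomal RNA. All 6 counts of BM total RNA came from library 1 (12.7 CPM, against 0 and 0). There the differences of -3.37 ± 1.30 (adjusted p = 0.0603) and -2.84 ± 1.25 (adjusted p = 0.0941) were not called, and they turned positive without that library. With the replicate number as a block, the LY6C total difference of -3.32 was called (adjusted p = 0.032). The error of that fit leaves out the spread between cultures and between mice, so its p-value is too small.

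Plin2 (ENSMUSG00000028494, chr4:86648386-86670060, minus strand) encodes the perilipin that coats lipid droplets in most cells. It was counted in all 18 libraries, and number 3 differed from number 2 by -0.17 to 0.08 (log2) in the 4 sorted groups. LY6C had 60.5, 53.8 and 103 CPM in total and 65.7, 64.8 and 232 CPM in polysomal RNA, and LY6G 56.7, 53.3 and 81.4 CPM in total and 61.4, 65.1 and 146 CPM in polysomal RNA. BM had 14.8, 9.82 and 10.3 CPM in total and 20.3, 7.52 and 14.4 CPM in polysomal RNA. No sorted library reached down to BM. The rise was 2.65 ± 0.58 for LY6C (adjusted p = 0.00204) and 2.46 ± 0.58 for LY6G (0.0031) in total RNA. Polysomal RNA gave 3.08 ± 0.52 (0.000158) and 2.67 ± 0.51 (0.000429).

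Apoe (ENSMUSG00000002985, chr7:19696109-19699188, minus strand), the apolipoprotein that carries cholesterol out of macrophages, was low in 8 of the 12 sorted libraries, at 0.58 to 1.16 CPM in numbers 2 and 3. Number 6 had 6.57 CPM in total and 10.7 CPM in polysomal RNA of LY6C, and 4.09 and 12.9 CPM in those of LY6G. BM had 6.35, 18 and 35.1 CPM in total and 35.9, 27.2 and 48.5 CPM in polysomal RNA, within each fraction above every sorted library except for an overlap of LY6C number 6 with BM total library 1. In LY6G total RNA, where Apoe did not overlap, 8.45% of all genes did so in that direction. Differences from BM were -2.77 ± 1.49 (adjusted p = 0.188), -3.36 ± 1.5 (0.107), -3.18 ± 1.31 (0.0794) and -2.99 ± 1.29 (0.0827) for LY6C and LY6G in total and then in polysomal RNA, and none was called. With the replicate number as a block the same differences were -3.26 (adjusted p = 0.000237), -3.70 (6.25e-05), -4.05 (7.43e-07) and -4.26 (3.11e-07), and all 4 were called. For a difference from BM, however, the block takes the spread between cultures and between mice out of the error. These adjusted p-values are therefore too small, and the calls do not replace those of the fit without a block. Without number 6 in the sorted cells the differences from BM were -4.36, -4.74, -5.38 and -6.00, all called. That omission takes out the library with the highest Apoe level of each sorted group, so these calls do not strengthen the result. Without number 3 instead, all 4 differences stayed negative and none was called (adjusted p = 0.309, 0.201, 0.198 and 0.211 by edgeR). Both omissions were chosen after seeing the data.

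Gpnmb (ENSMUSG00000029816, chr6:49036546-49070929, plus strand), a glycoprotein of lysosomes in lipid-laden macrophages, had 79.5, 20.3 and 74.4 CPM in LY6C total and 84.1, 23.7 and 82.4 CPM in LY6C polysomal RNA. LY6G had 118.5, 74.1 and 107 CPM in total and 113, 78.8 and 171 CPM in polysomal RNA. BM total RNA had no count and BM polysomal RNA 4 counts in 3 libraries (0.29, 0 and 1.05 CPM). Gpnmb was at least 30.3-fold higher in LY6C and 52.2-fold higher in LY6G total RNA (adjusted p = 0.000118 and 2.89e-05), and 7.0 ± 0.82 and 7.93 ± 0.83 higher (log2) in polysomal RNA (adjusted p = 7.81e-06 and 1.84e-06 by edgeR). It was called in each comparison whichever library was left out.

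Trem2 (ENSMUSG00000023992, chr17:48346401-48354147, plus strand), a receptor for lipids that signals through the adapter Tyrobp, was listed at 0 in all 18 libraries. It lies in a run of 11 neighbouring protein-coding genes that were all at 0, from Trem3 to Unc5cl (chr17:48247777-48539714). The run holds Nfya, a subunit of the NF-Y factor that most cells use, whereas its partners Nfyb and Nfyc had 86 to 571 and 63 to 667 counts per sorted library. Across the table, 5436 of 21998 protein-coding genes (24.7%) were at 0. No level or upper limit is therefore drawn from the 0 of Trem2, and its source was not tested. Tyrobp, the adapter, stood at 47.7 to 88.5 CPM in the sorted libraries.

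**Figure D2:**
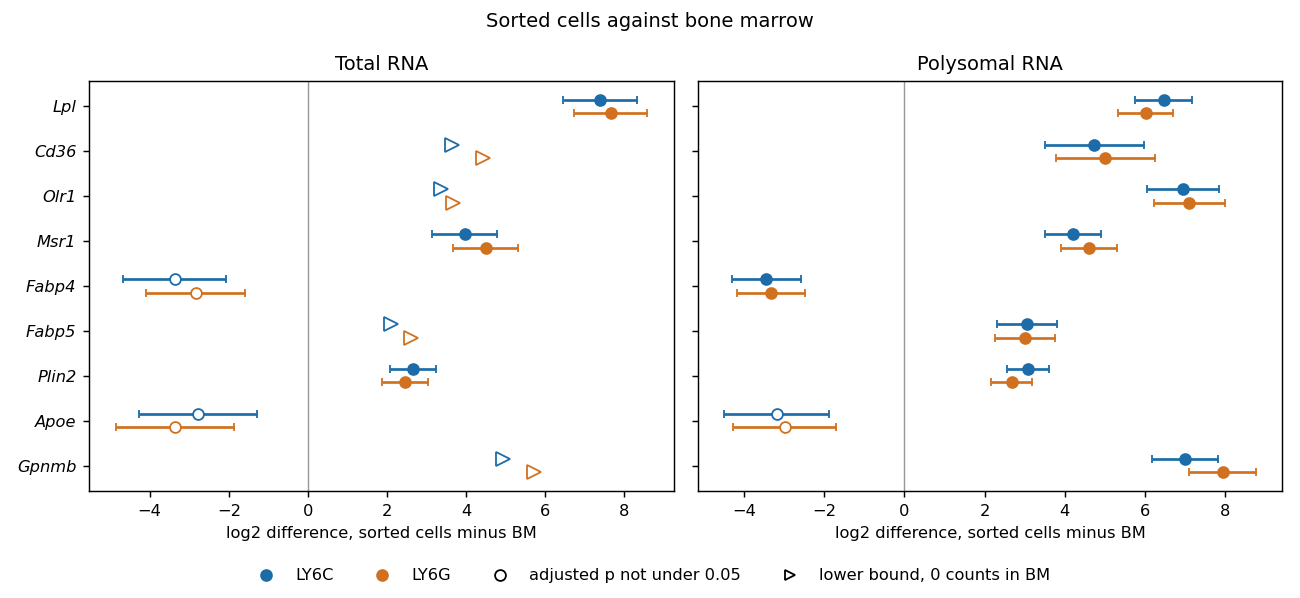
Log2 difference of each gene from BM, total RNA left and polysomal RNA right, with standard error bars; filled symbols had an adjusted p under 0.05 and triangles are lower bounds for genes with 0 counts in BM. In each panel 7 genes lie to the right of 0 and Fabp4 and Apoe to the left.

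Scaled per kilobase of the principal transcript, Lpl had the highest mean in 3 of the 4 sorted groups, at 51.1 ± 27.3 CPM per kb (SD, n = 3) in LY6C total, 105 ± 63.6 in its polysomal and 77.2 ± 31.5 in LY6G polysomal RNA. In LY6G total RNA Msr1 stood at 61.8 ± 16 and Lpl at 61.5 ± 33.7 CPM per kb. Msr1 and Plin2 otherwise took the next places, at 33.8 to 64.0 CPM per kb, and in none of the 4 groups did Lpl differ from the gene next to it beyond their spread. Lpl led in 8 of the 12 sorted libraries, and Msr1 and Plin2 in 2 each. These 3 were followed by Gpnmb, Fabp5 and Cd36 at 8.26 to 32.7. Olr1, Apoe and Fabp4 were the last in that order in all 4 sorted groups, Fabp4 at 0.429 to 0.954 CPM per kb. BM had another order, with Apoe first at 14.1 CPM per kb in total and 26.4 in polysomal RNA. Fabp4 and Plin2 came next in BM, at 4.73 and 6.17 in total and 9.76 and 7.45 in polysomal RNA, and they did not differ beyond the spread of their replicates.

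Markers of stroma were higher in BM in both fractions, and those of adipocytes in polysomal RNA. Those of endothelium overlapped between BM and sorted cells. The 5 stroma markers summed to 1983 to 6796 CPM in BM and 1.63 to 6.85 CPM in sorted cells, and all 5 had counts in every group. The 6 adipocyte markers summed to 3.71 to 5.78 CPM in BM polysomal RNA, with Lep at 0, and to at most 0.222 CPM in any sorted library, where Adipoq was at 0 in 3 of the 4 groups. In BM total RNA only Adipoq, with 1 count, was detected among them, and their sum was 2.12, 0 and 0 CPM, in the same library as the counts of Fabp4. The 6 endothelium markers summed to 13.9 to 34.4 CPM in BM and 5.53 to 45.6 CPM in sorted cells, with Emcn and Gpihbp1 at 0 in the sorted cells. The part of these cells in the Fabp4 and Apoe values was not tested.

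**Figure D3:**
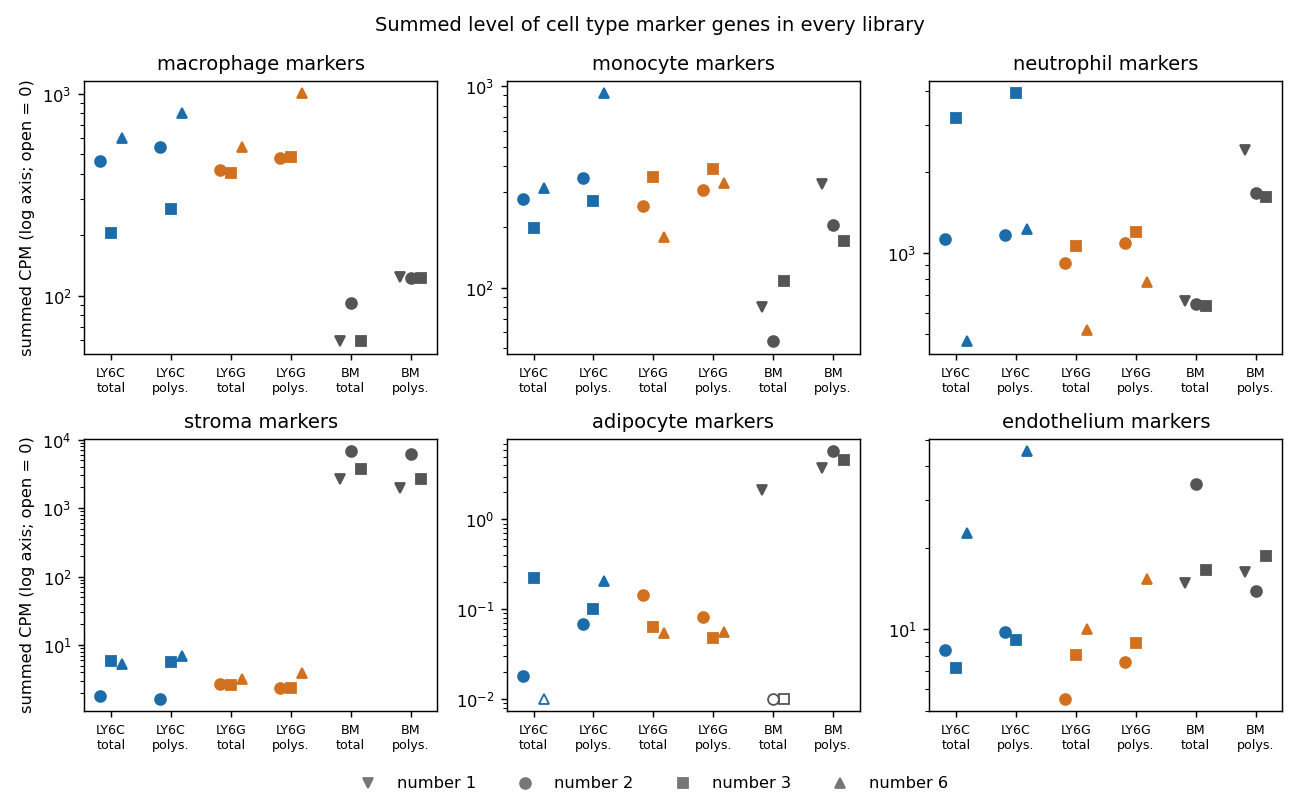
Summed CPM of marker genes for 6 cell types in every library, on log axes that differ between panels, by group and library number; open symbols mark 0. Stroma markers stand high in BM and low in sorted cells. Adipocyte markers stand above the sorted cells in BM polysomal RNA, at a few CPM, and at 0 in BM total libraries 2 and 3. LY6C number 3 is highest for neutrophil and lowest for macrophage markers among the sorted libraries.

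The highest library of a sorted group was mostly number 6, whereas the lowest differed between LY6C and LY6G. Number 6 was the highest in 29 of the 36 sets of 9 genes by 4 sorted groups. In LY6C, number 3 was the lowest in all 18 sets. In LY6G, number 3 was the lowest in 8 sets, number 2 in 8 and number 6 in 2. These counts were not made over all genes, so a shift of whole libraries cannot be told apart from a trait of these genes. Nuclear protein-coding genes took 37.3% of the counts of LY6C total library 3 and 54.5% of library 6, against 93.4% of library 2. In LY6C polysomal RNA the shares were 66.7%, 72.4% and 93.7% in the same order. The part of these shares in the gene values was not tested. Relative to number 2, LY6C number 3 was at -2.20 (log2) for Cd36, -1.97 for Gpnmb, -1.54 for Lpl and -1.45 for Msr1 in total RNA, but at -0.17 for Plin2. The same library had a neutrophil marker sum of 3163 CPM in total and 3915 CPM in polysomal RNA, against 469 to 1226 CPM in the other LY6C libraries. Its macrophage marker sum was 205 CPM in total and 270 CPM in polysomal RNA, against 462 to 806 CPM in the others. Number 6 stood out by Apoe, at 2.22 (LY6G total) to 4.22 (LY6G polysomal) above number 2, whereas Lpl stood at -1.59 relative to number 2 in LY6G total RNA. Macrophage markers reached 806 CPM in LY6C and 1002 CPM in LY6G polysomal number 6, and megakaryocyte markers 342 and 223 CPM, against 14.2 to 61.1 CPM in the other sorted polysomal libraries. The part of these markers in the gene values was not tested. Without number 3 in the sorted cells 7 of the 9 genes were called against BM in each total and 8 in each polysomal comparison, and without number 6 all 9 were called in each of the 4.

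No gene of the set differed detectably between the sorted populations. LY6G minus LY6C gave no called gene by edgeR among all 14181 in either fraction, with 565 at an unadjusted p under 0.05 in total and 833 in polysomal RNA and none of the 9 among them. DESeq2 called 0 in both fractions and limma 1 in total and 0 in polysomal RNA. Of the 9, 7 had a positive difference in total RNA, and their median was 0.52, against 0.00 over all genes. In polysomal RNA 6 of 9 were positive with a median of 0.16, against -0.03. Gpnmb had the highest difference in both fractions, 0.78 ± 0.52 (adjusted p = 1.0) in total and 0.93 ± 0.52 (adjusted p = 0.845) in polysomal RNA, and was higher in LY6G in 3 of 3 numbers in each. With the replicate number as a block, edgeR gave Gpnmb 0.99 ± 0.3 in total (adjusted p = 0.267) and 1.07 ± 0.3 in polysomal RNA (0.151), not called. The number-wise ratios of Gpnmb ran from 0.53 to 1.87 (log2) in total and from 0.42 to 1.73 in polysomal RNA, highest in number 3. Fabp4 and Fabp5 were also higher in LY6G in 3 of 3 numbers in total RNA only. Apoe was lowest, at -0.58 ± 1.23 in total RNA (-0.44 ± 0.4 with the block) and lower in LY6G in 3 of 3 numbers. Agreement in 3 of 3 numbers was not counted over all genes and is given as a description only. Lpl had the lowest polysomal difference, -0.44 ± 0.54 (-0.52 ± 0.56 with the block), with number-wise ratios from -1.98 in number 6 to 1.32 in number 3. For Cd36 the ratio in total RNA was 3.17 in number 3 and -0.11 in number 6.

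**Figure D4:**
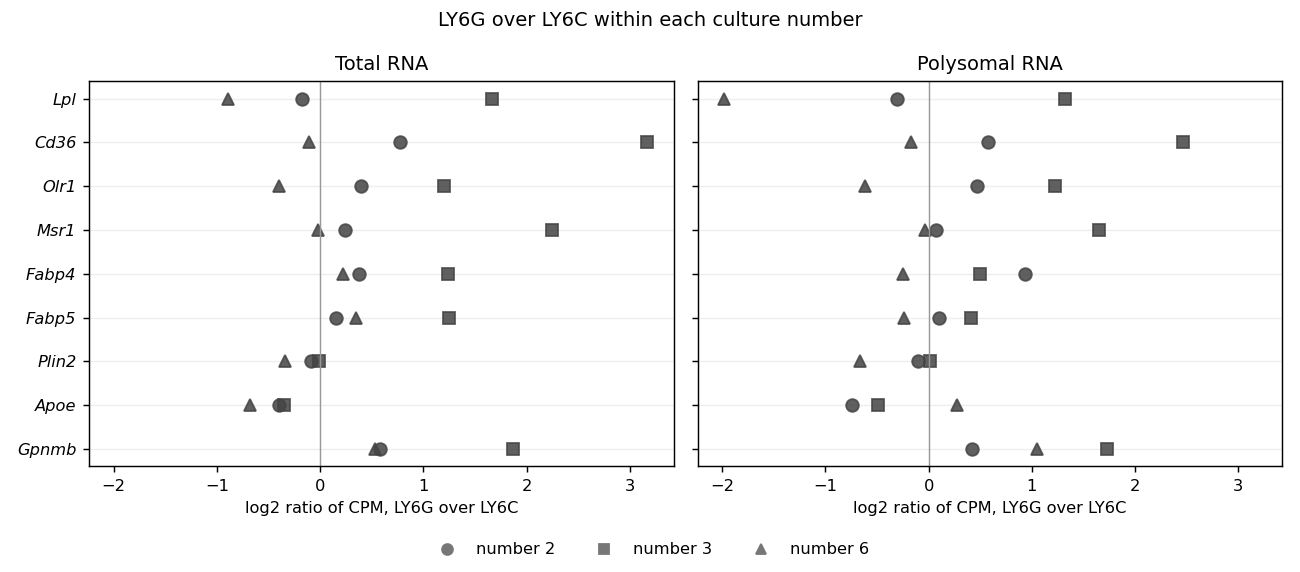
Log2 ratio of CPM, LY6G over LY6C, for each of the 9 genes within each library number, total RNA left and polysomal RNA right. In total RNA the ratio of number 3 lies farthest right for each of the 9 genes, reaching 3.17 for Cd36, and Gpnmb is the gene with all 3 numbers right of 0 in both panels.

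Polysomal minus total RNA asks whether a transcript takes a different share of the polysomes than of all RNA. None of the 9 genes was called in LY6C, LY6G or BM. By edgeR no gene of all 14181 was called in LY6C (433 at an unadjusted p under 0.05) or in LY6G (254), DESeq2 called 6 and 4, and limma 0 and 102. In BM 3.39% of all genes were called. Of the 9, 8 were positive in LY6C, with a median of 0.66 against 0.01 over all genes, and 7 of the 9 in LY6G, with a median of 0.36 against 0.00. Fabp5 had the highest difference in LY6C, 1.30 ± 0.61 (unadjusted p = 0.0481, adjusted p = 1.0), and was higher in polysomal RNA in 3 of 3 numbers there, by 0.38 to 1.97. Lpl was at 1.04 ± 0.54 in LY6C and 0.33 ± 0.54 in LY6G and was higher in polysomal RNA in 3 of 3 numbers in each, as was Plin2. The share of all genes with the same direction in 3 of 3 numbers was not counted, so such agreement is not particular to these genes. Olr1 was the gene with a lower polysomal than total level in 3 of 3 numbers of both populations. Its ratios were -0.54 to -0.30 in LY6C and -0.52 to -0.47 in LY6G, where the groups did not overlap, as was the case for 9.06% of all genes in that direction. The fitted differences of Olr1 were -0.41 ± 0.44 and -0.50 ± 0.44, not called, in a fit that does not pair the fractions of a number. With the replicate number as a block, none of the 9 was called in either population. In LY6C that fit gave Fabp5 1.04 ± 0.35 and Lpl 1.15 ± 0.54. The ratio of polysomal to total RNA was largest in number 6 in 14 of 18 sets, a count not made over all genes. Without number 6 the LY6C differences of Fabp5 and Lpl were 0.48 and 0.40.

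**Figure D5:**
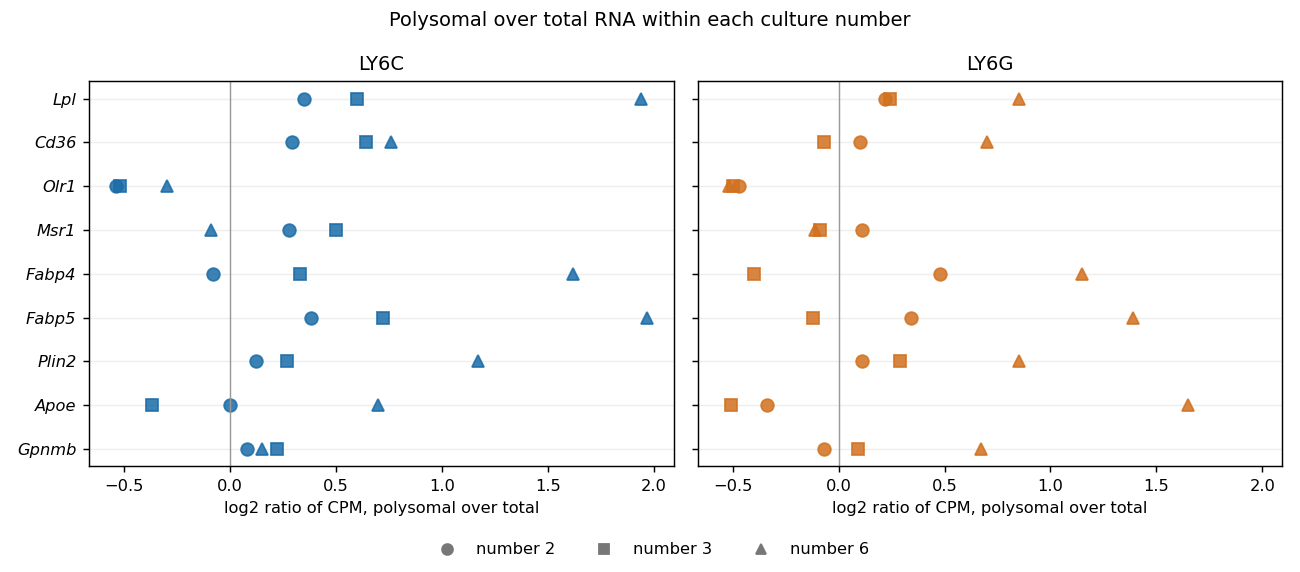
Log2 ratio of polysomal over total CPM for each of the 9 genes within each library number, LY6C left and LY6G right. Olr1 lies left of 0 in all 6 pairs, while Lpl and Plin2 lie right of 0 in all 6, with number 6 mostly farthest right.

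In BM 8 of the 9 fitted differences were positive, with a median of 1.96 against 0.55 over all genes. That median rests on 4 genes without a count in total RNA, Cd36, Olr1, Fabp5 and Gpnmb, which had 1 to 21 counts in polysomal RNA, and with such genes at their bounds it was 0.17 against 0.00. Lpl was at 1.96 ± 1.19, on 2 counts in total RNA, Fabp4 at 1.12 ± 1.10, Apoe at 0.91 ± 1.41, Plin2 at 0.31 ± 0.61 and Msr1 at -0.14 ± 1.02. The difference of these contrasts between kinds of cell, often called translational efficiency, called none of the 9. For LY6G minus LY6C no gene was called by edgeR (7 at an unadjusted p under 0.05), DESeq2 or limma, and the members ran from -0.71 ± 0.76 (Lpl) to 0.78 ± 1.72 (Apoe). Against BM 0.338% of all genes were called for LY6C and 0.416% for LY6G.

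Other genes of the pathway were counted from 4 lists. Of 18 tested genes of fatty acid and lipoprotein uptake, 7 rose and 1 fell in LY6C total RNA and 6 rose and 1 fell in each other comparison with BM, beside the 20.2% to 22.1% of all genes that rose and the 7.4% to 15.3% that fell. Their median was 1.31 for LY6C and 0.88 for LY6G in total RNA with genes at 0 in BM at their bounds (0.00 over all genes), and 1.39 and 1.27 in polysomal RNA (0.10 and 0.03 over all genes). Among the risers was Cd68, a lysosomal scavenger receptor homologue, which rose by 4.42 ± 0.76 in LY6C and 4.57 ± 0.76 in LY6G polysomal RNA. Marco, like Msr1 a class A scavenger receptor, had no count in BM polysomal RNA and was at least 24.3-fold higher in LY6C and 30.4-fold higher in LY6G. Cd163, the haemoglobin scavenger receptor of resident macrophages, fell, from 16.3 ± 15.2 CPM in BM to 0.0922 ± 0.137 CPM in LY6C total RNA (log2 difference -7.67 ± 1.14) and 0.137 ± 0.0646 CPM in LY6G (-6.85 ± 1.03).

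For droplet storage and lipolysis, 7 to 8 of 18 tested genes rose and 1 to 3 fell in the 4 comparisons, where 20.2% to 22.1% of all genes rose and 7.4% to 15.3% fell. With genes at 0 in BM at their bounds, the list's median in total RNA was 0.96 for LY6C and 0.77 for LY6G against 0.00, and in polysomal RNA it was 0.95 and 0.49 against 0.10 and 0.03. Lipa, the lysosomal acid lipase that frees cholesterol and fatty acids from lipoproteins, was at 52.4 ± 33.8 CPM in LY6C and 69.0 ± 13.2 CPM in LY6G total RNA and without a count in BM total RNA, at least 27.4-fold and 36.1-fold higher. Hilpda, which holds back triglyceride lipolysis, was absent from the counts of both BM fractions and at least 84.7-fold higher in LY6C and 94.8-fold higher in LY6G polysomal RNA. Soat1, which esterifies cholesterol for droplets, rose by 2.73 ± 0.37 in LY6G polysomal RNA, and Dgat2, which completes triglyceride synthesis, rose from 1.25 ± 1.11 CPM in BM, on 2 counts, to 14.99 ± 7.77 CPM in LY6C total RNA.

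The lipid-associated macrophage genes had the most calls of the lists, with 12 of 15 tested rising in each total and 13 of 15 in each polysomal comparison, and 1 falling, beside the same shares of all genes. Their median with bounds was 3.02 for LY6C and 3.06 for LY6G in total RNA (0.00 over all genes) and 2.61 and 2.16 in polysomal RNA (0.10 and 0.03). Among them Itgax, the integrin CD11c, was at least 30.7-fold higher in LY6C and 31.6-fold higher in LY6G total RNA. Spp1, osteopontin, was at 184 ± 221 CPM in LY6C polysomal RNA against 6.09 ± 4.65 CPM in BM (4.87 ± 0.83). Ctsl, a lysosomal protease, was at 193 ± 219 CPM in LY6C and 209 ± 169 CPM in LY6G polysomal RNA against 4.18 ± 1.72 CPM (5.56 ± 1.01 and 5.67 ± 1.02). Cd5l, a secreted protein of resident macrophages, fell and went from 10.3 ± 0.649 CPM in BM polysomal RNA to 0.0278 and 0.0350 CPM. Creg1 of the same list was the single pathway gene called between polysomal and total RNA, in BM (2.71 ± 0.67, adjusted p = 0.0331 by edgeR).

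Of 16 tested PPAR and LXR receptors and targets, 6 rose in each total comparison, 6 rose and 1 fell in LY6C polysomal and 4 rose and 1 fell in LY6G polysomal RNA. Of all genes, 20.5% and 21.5% rose in the total comparisons of LY6C and LY6G and 20.2% and 22.1% in the polysomal ones, where 11.2% and 15.3% fell. With the bounds the median was 1.74 and 1.49 in total RNA, against 0.00, and 0.89 and 0.76 in polysomal RNA, against 0.10 and 0.03. Abcg1, which exports cholesterol, rose by 2.67 ± 0.46 in both polysomal comparisons, to 59.8 ± 33.2 CPM in LY6C and 59.8 ± 5.81 CPM in LY6G from 9.45 ± 2.71 CPM. Ppard, a fatty acid receptor, rose by 2.73 ± 0.46 and 3.00 ± 0.46, and Scd2, a desaturase, by 2.28 ± 0.43 and 1.56 ± 0.42. None of the 4 lists had a called gene between LY6G and LY6C or between polysomal and total RNA of the sorted cells.

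The genes whose profile over the 12 sorted libraries lay nearest each member were found among 4294 genes of at least 10 CPM, by the root mean square difference of log2 CPM after centring. The libraries share cultures and numbers, so this describes them only. Itgax lay nearest Lpl (0.22, against a median of 0.88 over all genes), followed by Ifi30 and Cd74. Mmp13, Acod1 and Hmox1 lay nearest Cd36 (0.36 to 0.41), and Rusc2, Dab2 and Fgd6 nearest Msr1 (0.20 to 0.23). Nearest to Olr1 were Vamp4, Gsap and Dclre1c (0.23 to 0.25), to Fabp5 Esd, Ifi27l2a and Ctsb (0.21 to 0.25), and to Gpnmb Clec4d, Cmklr1 and Igf2r (0.24 to 0.28). Plin2 had the closest neighbours, Ifnar2 (0.11), Por and H2-D1 (0.12 each).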

How the data were processed

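The deposited file holds raw counts per gene in 18 libraries, as the authors made them. STAR 2.5.2a, FastQC, DESeq and DESeq2 with GRCm38 (mm10) are listed, per the submitters' processing notes. The program that counted reads, its annotation and its strand setting are not given in the sources used here. Ensembl identifiers were named with GENCODE M21, which matched 54809 of 54838, and no member overlaps another gene there. The members and the gene and marker lists were chosen with earlier results of these data known.

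All 18 libraries entered a single edgeR 4.0.16 fit (R 4.3.3) of 6 group means without a block. The filter was filterByExpr with a minimum count of 10, libraries were scaled by TMM, and the prior count was 2. Quasi-likelihood tests were two-sided, with p-values adjusted by Benjamini-Hochberg over 14181 genes, and 0.05 was the threshold for a call. Each pair of cell kinds was compared per fraction, polysomal was compared with total RNA per kind, and these differences were compared between kinds, 12 comparisons in all. A group at 0 was set at 3 counts over the group for a lower bound. In medians with bounds, a bound that fell short of any difference was set at 0 (log2). Ratios on few counts have exact 95% intervals, which cover counting error only. Levels per kb used the principal transcript, chosen after seeing the data because the union of Fabp4 exons spans its whole gene. From each list, at most 3 called genes per comparison with the largest difference and at least 10 CPM in the higher group were eligible for naming. Some items are not reported here.

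Alternatives were DESeq2 1.42.0, limma 3.58.1, other scalings and filters, thinning to 54944 counts, the compared libraries alone, a block for the replicate number, and each library left out in turn. The block in the compared libraries alone and leaving out number 3 or 6 of the sorted cells were chosen after seeing the data. Pairing came from the numbers in the sample names. Deviations from group means correlated at 0.27 to 0.74 between all same-numbered sorted libraries, so the numbers pair them, and at 0 to 0.03 between BM fractions, which cannot decide. The block was set separately in sorted cells and BM. A difference from BM thus lies between blocks, and its error leaves out the spread between cultures and between mice. Scripts were tested on simulated data, and figures were drawn with matplotlib 3.10.9.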

Additional observations from a re-analysis of the deposited data

How the results depend on the processing

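Over the alternatives, 5 to 9 of the 9 genes were called against BM in each total comparison and 6 to 9 in each polysomal comparison, where the planned fit called 7 and 8. In all other comparisons 0 were called in every setting. Of 876 values of single genes, 791 kept direction and side of the threshold, 25 lost a call, 41 gained one and 19 changed sign. Of these values 612 were differences from BM in total or polysomal RNA, for each gene tested, and 2 of them changed sign. In the other comparisons only selected genes were counted, mainly those with the lowest and highest difference. Most genes near 0 there, and efficiency against BM, were left out, so sign changes of small differences are undercounted. The replicate block called 9, 8, 9 and 9 genes for LY6C total, LY6G total, LY6C polysomal and LY6G polysomal RNA against BM. Its p-values for these differences are too small, because its error leaves out the spread between cultures and between mice. In the other comparisons the block changed no call of a member. Over all genes the block called 767 in BM polysomal minus total, against 481 without it, and 81 and 103 for efficiency of LY6C and LY6G against BM, against 48 and 59. For the same 2 efficiencies DESeq2 called 184 and 200 genes and limma 15 and 89, and for BM polysomal minus total limma called 139 and median-ratio factors 200. The cause was not tested.

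Values that changed sign were mostly near 0 or rested on 1 library. Leaving out 1 library in turn, Fabp4 in total RNA against BM ran from -4.14 to 7.22 for LY6C and from -3.59 to 7.76 for LY6G, where the positive end leaves out BM total library 1, which held all its counts in that group. Likewise, Apoe LY6G minus LY6C in total RNA ran from -1.76 to 0.77 and Lpl LY6G minus LY6C in polysomal RNA from -0.82 to 0.09. Olr1 polysomal minus total in LY6C ran from -1.05 to 0.05, Apoe polysomal minus total in LY6G from -1.60 to 2.46, Lpl polysomal minus total in LY6G from -0.06 to 0.69, Plin2 polysomal minus total in BM from -0.10 to 0.52 and the Apoe efficiency difference of LY6G and LY6C from -2.11 to 2.82. Without number 6 in the sorted cells, Lpl LY6G minus LY6C in polysomal RNA was 0.40, Apoe polysomal minus total in LY6G -0.42 and the Apoe efficiency difference -0.24. In limma these 3 were 0.20, -0.31 and -0.08. Plin2 polysomal minus total in BM was -0.13 in DESeq2, -0.12 with median-ratio factors and -0.01 with a block fitted to the compared libraries only. Thinning to the smallest protein-coding total ended the calls of Olr1, Fabp4 and Fabp5 in LY6C polysomal, of Fabp4 and Fabp5 in LY6G polysomal and of Fabp5 in LY6G total RNA. Median-ratio factors and protein-coding library sizes ended those of Cd36 and Fabp5 in LY6C total RNA, and limma that of Cd36 in LY6C polysomal RNA. BM depth limits all comparisons with BM.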
